A study of Mus musculus with 6 samples.

Results

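The genes described here are 6 genes of sugar and peptide absorption and of fructose use, namely Slc5a1, Slc15a1, Slc2a1, Slc2a2, Slc2a5 and Khk. They were chosen by gene symbol, and all 6 were found among the 55416 genes of the RNA-Seq table. Crypts of the duodenum and jejunum were taken from 3 wild-type (WT) C57BL/6 mice fed chow and grown in Matrigel as organoids, which are miniature epithelia that hold stem cells and their differentiated progeny. The organoids of each mouse were cultured for 5 days either with 50 μg/ml low density lipoprotein (LDL) or with phosphate-buffered saline (PBS) as the control, so that 3 LDL-treated and 3 PBS-treated libraries were obtained. Both groups were kept in the same growth medium, the age of the mice is not given in the sources used here, and the 2 libraries of a replicate number came from the same animal.

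Absorptive enterocytes take up glucose and galactose across the brush border through SGLT1, the sodium-coupled transporter encoded by Slc5a1, and fructose through GLUT5, encoded by Slc2a5. GLUT2, encoded by Slc2a2, releases these sugars toward the blood. Ketohexokinase, encoded by Khk, phosphorylates fructose inside the cell, the first step of its breakdown. GLUT1, encoded by Slc2a1, is a widely expressed glucose transporter that brings glucose into cells for their own use, and PepT1, encoded by Slc15a1, takes up dipeptides and tripeptides together with protons.

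Expression was measured as normalized counts, that is, reads per gene divided by 1 size factor per library, and 22061545 to 31073360 reads lay on genes in each library. The LDL-treated library of mouse 1 stood apart, with a read on 35781 genes against 29285 to 32751 in the others. Its chi-square per degree of freedom was 273 and 343 against the other LDL-treated libraries, while the other pairs within a treatment gave 25.0 to 76.4. LDL- and PBS-treated organoids were compared on log2(normalized count + 1) for the 18459 genes whose mean was at least 10. A gene was called higher or lower when limma gave a Benjamini-Hochberg adjusted p under 0.05 and the change was over 1.5-fold. The comparison treated the libraries as independent groups, and a second fit took the mouse as a block, which compares the cultures of the same animal. All 6 genes passed the filter on the mean. In bulk RNA, fewer cells of a type and less RNA per cell cannot be told apart.

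The promoters of 4 of the genes are shown because Slc2a1 was called higher with LDL in both fits, Khk and Slc15a1 were called lower with the mouse as a block, and Slc5a1 is the sodium-coupled glucose carrier of the set. Each is the 250 bases before the start of the canonical GENCODE transcript in GRCm39, which for Slc15a1 and Slc2a5 lies inside the bounds of the gene, written 5′ to 3′ along the gene, with capitals for a match to a searched motif.
Slc2a1, chr4:118965658-118965907, plus strand: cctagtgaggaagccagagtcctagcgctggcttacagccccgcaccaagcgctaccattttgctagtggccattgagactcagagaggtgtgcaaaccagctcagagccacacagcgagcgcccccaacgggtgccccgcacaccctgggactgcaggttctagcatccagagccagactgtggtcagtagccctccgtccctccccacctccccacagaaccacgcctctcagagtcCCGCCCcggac
Khk, chr5:31078525-31078774, plus strand: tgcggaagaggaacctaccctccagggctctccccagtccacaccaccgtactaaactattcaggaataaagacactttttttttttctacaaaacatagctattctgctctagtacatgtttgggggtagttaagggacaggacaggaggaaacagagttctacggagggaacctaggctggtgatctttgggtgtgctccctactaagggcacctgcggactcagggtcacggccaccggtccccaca
Slc15a1, chr14:121742665-121742914, minus strand: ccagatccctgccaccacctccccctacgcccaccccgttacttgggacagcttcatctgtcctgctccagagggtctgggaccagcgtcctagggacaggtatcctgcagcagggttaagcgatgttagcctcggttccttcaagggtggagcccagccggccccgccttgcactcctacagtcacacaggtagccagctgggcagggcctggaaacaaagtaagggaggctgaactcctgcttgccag
Slc5a1, chr5:33261313-33261562, plus strand: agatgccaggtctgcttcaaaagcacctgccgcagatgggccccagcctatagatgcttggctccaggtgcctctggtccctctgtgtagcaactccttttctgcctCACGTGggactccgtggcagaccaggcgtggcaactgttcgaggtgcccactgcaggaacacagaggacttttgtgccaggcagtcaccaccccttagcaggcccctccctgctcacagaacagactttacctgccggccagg
The motifs searched on both strands were a TATA box (TATAAA), a GC box (GGGCGG), an E-box (CACGTG), an HNF4 site (CAAAGTCCA) and a CDX2 site (TTTATNG). The capitals in Slc2a1 are a GC box on the minus strand that begins 11 bases before the start, and those in Slc5a1 are an E-box that begins 143 bases before it. None of the 5 motifs was found in the windows of Khk, Slc15a1 and Slc2a2, and Slc2a5 held 3 GC boxes, of which 2 adjoin. A GC box was present in 48.1% and an E-box in 7.67% of 12995 promoters of the same length. The letters of a window depend on the start chosen: RefSeq places the start of Khk 128 bases further downstream, and its window for Khk held both a GC box and an E-box. A match describes these letters and is not evidence of binding.

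Of the 6 genes, 1 was called higher with LDL, Slc2a1, where 0.878% of all genes tested were called higher. None was called lower, where 0.395% of all genes were, and none of the lower genes had an unadjusted p under 0.05 in limma; edgeR and DESeq2 without the mouse also called 0. With the mouse as a block, limma called 3 of the 6 genes where it called 9.14% of all genes. Slc2a1 was called higher, against 5.68% of all genes, and Khk and Slc15a1 lower, against 3.46%. Every one of the 6 genes moved the same way in all 3 mice, which held for 51.1% of the genes tested. Slc2a1, Slc2a2 and Slc2a5 were higher with LDL in each mouse, whereas Slc5a1, Slc15a1 and Khk were lower in each. Slc2a1 was the only one of the 6 whose LDL and PBS values did not overlap, as was the case for 24.2% of all genes.

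**Figure D1:**
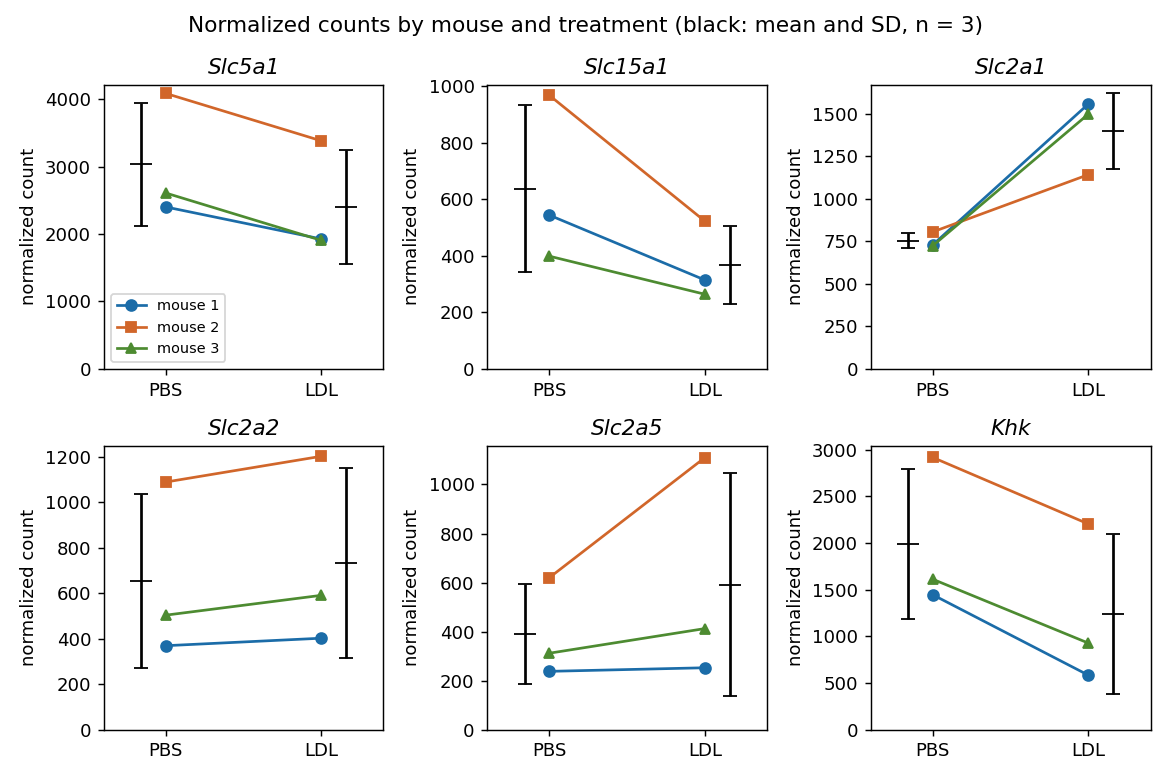
Normalized count of each of the 6 genes (vertical axes from 0) in PBS- and LDL-treated organoids, with a line joining the 2 cultures of a mouse and black bars for the mean and SD (n = 3). The 3 lines slope the same way in every panel, mouse 2 lies above the others except for LDL-treated Slc2a1, and the treatments separate only for Slc2a1.

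Slc2a1, the gene of the glucose transporter GLUT1, lies on chromosome 4 of GRCm39 from 118965908 to 118996365. Its normalized count was 1559, 1143 and 1499 in LDL-treated organoids of mice 1, 2 and 3, and 731, 806 and 725 in PBS-treated organoids. All LDL values lay above all PBS values, and mouse 2 had the lowest LDL value and the highest PBS value. Slc2a1 rose from a mean of 754 ± 45.3 to 1400 ± 225 (SD, n = 3 each). The log2 change was 0.88 (SE 0.13, limma adjusted p = 0.0269) with a 95% interval of 0.57 to 1.19, and within a mouse the level was 2.13, 1.42 and 2.07 times that of the PBS culture. The call did not hold in the fit without the mouse when any library other than the LDL culture of mouse 2 was left out. Leaving out the LDL culture of mouse 1 or 3 gave limma adjusted p-values of 0.0570 and 0.169. Leaving out the PBS culture of mouse 1, 2 or 3 gave 0.141, 0.0892 and 0.121, and the log2 change in these 5 fits was 0.80 to 0.93. The fit with the mouse as a block gave a limma adjusted p of 0.00368, or 0.0914 when mouse 3 was dropped from it.

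Slc5a1, the gene of SGLT1, lies on chromosome 5 from 33261563 to 33320214. LDL-treated organoids had 1927, 3383 and 1906 normalized counts in mice 1, 2 and 3, and PBS-treated organoids had 2402, 4086 and 2609. Mouse 2 was the highest in both treatments, so the groups overlapped although each LDL culture was below its own PBS culture. The means were 2406 ± 847 and 3032 ± 918 (SD, n = 3), which gave a log2 change of -0.35 with a 95% interval of -0.97 to 0.28 and an adjusted p of 0.535 from limma. LDL-treated levels were 0.802, 0.828 and 0.731 times those of PBS in the 3 mice. The block narrowed the interval to -0.52 to -0.17 (limma adjusted p = 0.0204), and the gene was not called because the change was under 1.5-fold.

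Slc15a1, the gene of PepT1, lies on chromosome 14 from 121697033 to 121742845 on the minus strand. It had 315, 523 and 264 normalized counts with LDL and 544, 968 and 399 with PBS in mice 1, 2 and 3. Each LDL culture was lower than its PBS culture, and the groups overlapped because the LDL value of mouse 2 was above the PBS value of mouse 3. The means were 367 ± 137 and 637 ± 296 (SD, n = 3), with a log2 change of -0.76, a 95% interval of -1.57 to 0.06 and an adjusted p of 0.288 from limma. The LDL level was 0.578, 0.540 and 0.662 times the PBS level, the narrowest spread of ratios among the genes past 1.5-fold. Slc15a1 was, with the mouse as a block, called lower (limma adjusted p = 0.00302, 95% interval -0.99 to -0.52), and this call held when any 1 mouse was dropped, with adjusted p between 0.000119 and 0.0481. Omitting the LDL culture of mouse 1 from the fit with no block gave a log2 change of -0.68 (limma adjusted p = 0.493).

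Slc2a2, the gene of GLUT2, lies on chromosome 3 from 28752051 to 28785508. Its normalized counts were 402, 1203 and 591 with LDL and 369.5, 1090 and 504 with PBS in mice 1, 2 and 3. The spread between mice was far wider than the step between treatments. The log2 change was 0.17 with a 95% interval of -0.94 to 1.27 and an adjusted p of 0.887 from limma. In the fit with the block the interval was -0.03 to 0.36 and the limma adjusted p was 0.238, which allowed a change of up to 1.29-fold. The LDL level was 1.09, 1.10 and 1.17 times the PBS level. The sign of the fitted change turned when the LDL culture of mouse 2 was left out (-0.27) and when the PBS culture of mouse 1 was (-0.17).

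Slc2a5, the gene of the fructose transporter GLUT5, lies on chromosome 4 from 150196268 to 150228931. It had 252, 1109 and 412 normalized counts with LDL and 238, 620.1 and 312 with PBS. The values of mouse 1 nearly coincided between treatments, whereas those of mouse 2 were far apart, and the ratios were 1.06, 1.79 and 1.32. The log2 change was 0.44 with a 95% interval of -0.82 to 1.70 and an adjusted p of 0.710 from limma. It was not called with the block either (limma adjusted p = 0.0793, 95% interval 0.11 to 0.78). Leaving mouse 1 out of the fit with the block made it a called gene (log2 change 0.62, limma adjusted p = 0.0182), and leaving the LDL culture of mouse 2 out of the fit without the block turned the sign to -0.15.

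Khk, the gene of ketohexokinase, lies on chromosome 5 from 31078775 to 31101479. LDL-treated organoids had 584, 2205 and 928 normalized counts in mice 1, 2 and 3, against 1445, 2918 and 1612 in PBS-treated organoids. The LDL cultures of mice 1 and 3 were below every PBS culture, and that of mouse 2 was above the PBS cultures of both other mice. The means were 1239 ± 854 and 1992 ± 806 (SD, n = 3). The log2 change was -0.84 with a 95% interval of -1.91 to 0.24 and an adjusted p of 0.374 from limma, and the LDL level was 0.404, 0.756 and 0.576 times that of PBS in the 3 mice. In the fit with the block Khk was called lower (limma adjusted p = 0.0101, 95% interval -1.19 to -0.48), and without mouse 3 that call was lost (adjusted p = 0.132). When the LDL culture of mouse 2 was left out, the fit with no block called Khk lower (log2 change -1.36, limma adjusted p = 0.0178), and omitting that of mouse 1 gave -0.40 (limma adjusted p = 0.707).

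Khk overlaps Cgref1 on the opposite strand, and 2003 exon bases, 27.1% of those of Khk, are shared between them. Cgref1 had 1154, 1694 and 1437 normalized counts with LDL and 1100, 1468 and 1239 with PBS, so it was higher with LDL in each mouse while Khk was lower. The strand setting of the counting is not given in the sources used here, and the part of shared reads in the values of Khk was not tested. The other genes that overlap the 6 genes and were counted were pseudogenes and noncoding RNAs with at most 32.3 normalized counts in any library.

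**Figure D2:**
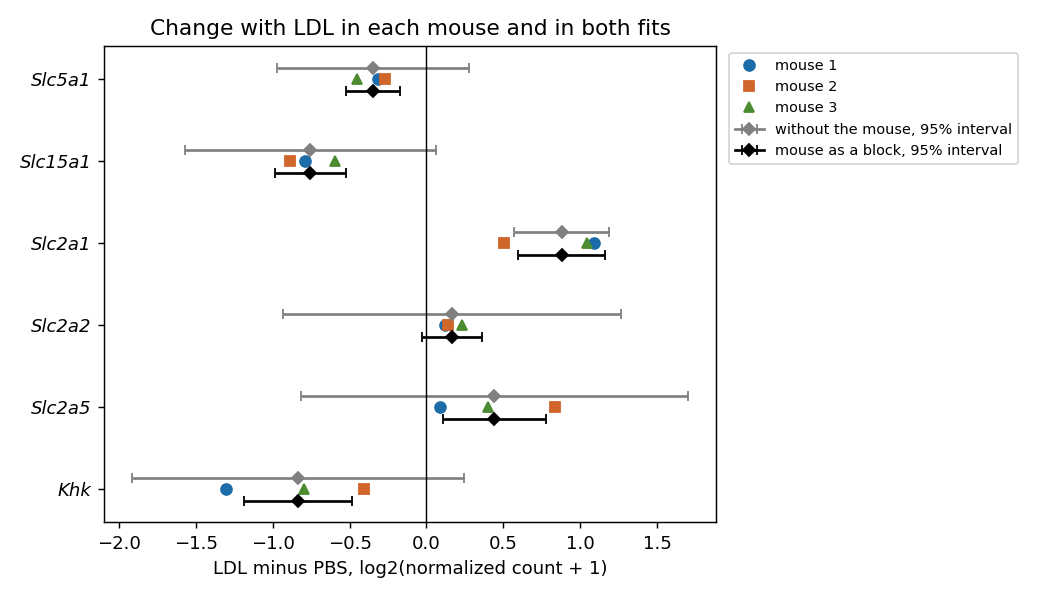
Difference between the LDL- and PBS-treated culture of each mouse for the 6 genes on the scale of log2(normalized count + 1) (points), with the fitted log2 change and 95% interval of limma without the mouse (grey) and with the mouse as a block (black). The grey interval lies wholly to one side of 0 for Slc2a1 alone, and the black interval does so for every gene but Slc2a2.

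To set levels of different genes side by side, normalized counts were divided by the length of the canonical transcript in kilobases. In PBS-treated organoids the order of these levels was Khk with 1201 ± 486 (SD, n = 3) normalized counts per kilobase, Slc5a1 with 739 ± 224, Slc15a1 with 204 ± 94.7, Slc2a1 with 170 ± 10.2, Slc2a2 with 117 ± 68.8 and Slc2a5 with 113 ± 58.5. Khk and Slc5a1 stood above the other 4 in every PBS library. The only neighbours in that order that differed by more than the larger of their SDs were Slc5a1 and Slc15a1. The places depend on the length used. This matters most for Khk, because its exons of all transcripts together span 7397 bases and its canonical transcript 1659. Per kilobase of all exons the PBS mean of Khk was 269, below the 739 of Slc5a1, and Slc2a1 with 161 stood before Slc15a1 with 126.

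With LDL the order was Khk with 747 ± 515 (SD, n = 3) normalized counts per kilobase, Slc5a1 with 586 ± 206, Slc2a1 with 315 ± 50.6, Slc2a5 with 171 ± 132, Slc2a2 with 131 ± 75.1 and Slc15a1 with 118 ± 43.9. Neighbours that differed by more than the larger of their SDs were Slc5a1 and Slc2a1, and Slc2a1 and Slc2a5. Per kilobase of all exons the LDL means were 586 for Slc5a1, 299 for Slc2a1 and 168 for Khk. Slc2a1 also varied the least between mice in the PBS cultures, with values from 163 to 181 normalized counts per kilobase, whereas Slc2a2 ranged from 66.3 to 196.

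Ratios of levels within a library set aside what the genes of a culture share, and the pairs were chosen after the values had been seen, so they are given without a test. Of 9 ratios formed, 4 did not overlap between treatments, among them both that follow. Slc2a1 over Slc2a2 was one that did, with 4.85, 1.19 and 3.18 with LDL and 2.48, 0.927 and 1.80 with PBS. The size of a ratio scales with the transcript lengths used, and the contrast between libraries does not. Slc2a5 over Khk, the fructose carrier over the first enzyme of fructose use, was 0.207, 0.241 and 0.213 with LDL in mice 1, 2 and 3. It was 0.0788, 0.102 and 0.0927 with PBS. The treatments did not overlap, and the 2 genes that spread widely between mice gave a ratio that varied little within a treatment. Slc2a1 over Slc5a1 was 0.747, 0.312 and 0.726 with LDL and 0.281, 0.182 and 0.257 with PBS. That ratio was higher with LDL in each mouse, and mouse 2 had the lowest value in both treatments.

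**Figure D3:**
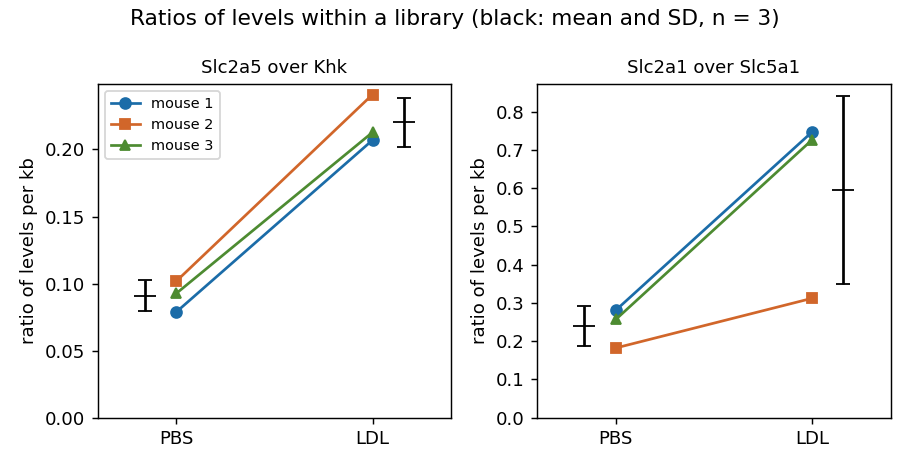
Ratios of normalized counts per kilobase within each library for Slc2a5 over Khk and Slc2a1 over Slc5a1 (vertical axes from 0), with lines joining the cultures of a mouse and black bars for the mean and SD (n = 3). Slc2a5 over Khk is above 0.2 in every LDL culture and at most 0.102 in the PBS cultures, and Slc2a1 over Slc5a1 is higher with LDL in each mouse.

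Across the 6 libraries the levels of Slc2a2 and Slc2a5 followed each other with a Pearson r of 0.967, and those of Slc5a1 and Khk with 0.943 (log2 values). Slc5a1 correlated with Slc15a1 at 0.910, while Slc2a1 was at -0.552 with Slc5a1, -0.689 with Khk and -0.664 with Slc15a1. These values describe 6 libraries from 3 mice that share treatment and animal. Among 11911 other genes with a mean of at least 100, the pattern most like Slc2a1 was that of Pinx1 (r = 0.997) and Gss (r = 0.997), and the pattern most like Khk that of Commd2 (r = 0.999) and Tdp2 (r = 0.997). Slc5a1 was most like Bet1 (r = 0.999), and Slc15a1 most like Clca4a (r = 0.995) and Gpat3 (r = 0.994). Slc2a2 was most like Gpt (r = 0.992) and Ctsb (r = 0.991), and Slc2a5 most like Dhrs1 (r = 0.997) and Adh1 (r = 0.997). With so few libraries, high values of r are common among so many genes.

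The other genes of sugar and peptide handling were taken from 7 lists with 88 genes, of which 78 were tested. Only Creb3l3 was called higher in the fit without the mouse (0.878% of all genes), and 0 were called lower, although 9 lower genes had an unadjusted p under 0.05 in limma. edgeR called 0 lower and DESeq2 called 2. The block gave 7 called higher and 7 lower of the 78 genes, where it called 5.68% and 3.46% of all genes. Dropping mouse 3 from that fit gave 1 and 4. Omitting the LDL culture of mouse 2 from the fit without the block gave 5 and 10. The median log2 change over the 78 genes was -0.13, against -0.02 over all genes tested, and 17 were higher and 27 lower in all 3 mice, which is 21.8% and 34.6% of them, against 24.2% and 26.8% of all genes.

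Of 11 tested hexose transporters outside the set, 0 were called without the block (3 had an unadjusted p under 0.05) and Slc5a9 was called higher with it. Slc5a9, a sodium-coupled sugar transporter, had 174, 215 and 165 normalized counts with LDL and 87.8, 150.4 and 97.7 with PBS, and its LDL values did not overlap those of PBS (limma gave an adjusted p of 0.137, or 0.0147 with the block). Slc5a3, a sodium-coupled myo-inositol carrier and the most abundant gene of that list, had a log2 change of 0.53. Its adjusted p was 0.105 without the block and 0.0127 with it, from limma, at less than 1.5-fold. The median log2 change of these 11 transporters was -0.15. In all 3 mice 2 of them were higher and 1 lower (18.2% and 9.09%), against 24.2% and 26.8% of all genes.

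Among 12 enzymes of fructose and galactose use, 0 were called without the block and 2 had an unadjusted p under 0.05. Tkfc, whose product acts on glyceraldehyde in the breakdown of fructose and which was named after its values were seen, had a log2 change of 0.04 (limma adjusted p = 0.947). Sord encodes sorbitol dehydrogenase, which makes fructose from sorbitol. It had 2073, 4002 and 2820 normalized counts with LDL and 4378, 5789 and 4584 with PBS, and it was called lower with the block only (log2 change -0.77, limma adjusted p = 0.129, and 0.00389 with the block). No other gene of that list was called with the block.

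Of 13 tested genes of hexokinases, glucose-6-phosphate release and sugar sensing, 0 were called without the block, where 3 had an unadjusted p under 0.05. Hk1, a hexokinase that traps glucose after its entry, had 1046, 308 and 851 normalized counts with LDL and 282, 268 and 234 with PBS. LDL values of mice 1 and 3 stood far above the rest, whereas the LDL level of mouse 2 was 1.15 times its PBS level. Mouse 2 also had the smallest ratio for Slc2a1, 1.42, but there its LDL value lay above every PBS value. The log2 change of Hk1 was 1.32 with an adjusted p of 0.137 without and 0.0236 with the block, from limma. Txnip, which encodes a regulator of glucose uptake and was the most abundant gene of that list, had a log2 change of 0.32 (limma adjusted p = 0.565).

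All 4 disaccharidase genes had lower means with LDL, as did 9670 of the 18459 genes tested. Of these 4, 3 were lower in each mouse, against 26.8% of all genes. Without the block 0 were called (1 had an unadjusted p under 0.05 in limma). Lct, the gene of lactase, had 207, 1220 and 207 normalized counts with LDL and 990, 2781 and 813 with PBS. It was 0.209, 0.439 and 0.255 times the PBS level, and mouse 2 was the highest in both treatments. Its log2 change was -1.80, or -2.65 to -1.26 when 1 library was left out. Lct was called lower with the block only (limma adjusted p = 0.227, and 0.00092 with the block). Mgam, the gene of maltase-glucoamylase and the most abundant of that list, had a log2 change of -0.32 (limma adjusted p = 0.422).

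In the list of peptide transport and brush border peptidases, to which Slc15a1 is closest, 16 genes were tested and 10 of them (62.5%) were lower in each mouse, against 26.8% of all genes. None was called without the block, where 6 had an unadjusted p under 0.05 in limma. With the block, 5 of the 16 were called lower, against 3.46% of all genes. Among them were Ace, Naaladl1, Dpp4 and Mep1a, which encode peptidases at the cell surface. Naaladl1 had 305, 696 and 304 normalized counts with LDL and 1374, 1932 and 793 with PBS, without overlap. Ace had 395, 1440.5 and 419 with LDL and 1318, 3133 and 1156 with PBS, and its groups overlapped through mouse 2. The log2 changes of Naaladl1, Ace, Mep1a and Dpp4 were -1.67, -1.44, -0.71 and -0.70. Their adjusted p-values from limma were 0.0874, 0.200, 0.185 and 0.158 without the block, and at most 0.00875 with it.

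With the block, Mep1b and Tmprss15 of the same list were called higher, against 5.68% of all genes. Mep1b, which encodes the beta subunit of the protease meprin whose alpha subunit is encoded by Mep1a, had 948, 910.3 and 871 normalized counts with LDL and 408, 685 and 398 with PBS. Its log2 change of 0.92 was opposite to that of Mep1a (limma gave an adjusted p of 0.0745, or 0.00737 with the block). Tmprss15 encodes enteropeptidase, the activator of trypsinogen, and was low. It had 24.4, 11.8 and 32.6 normalized counts with LDL and 1.02, 2.49 and 15.5 with PBS, the latter from 1, 2 and 19 reads. The log2 change of Tmprss15 was 2.19 (limma adjusted p = 0.177, or 0.0280 with the block), and 1.55 to 3.06 when 1 library was left out. Anpep, the gene of aminopeptidase N and the most abundant of that list, had a log2 change of -0.41 (limma gave an adjusted p of 0.648, or 0.0203 with the block).

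The list of the ion gradient and scaffold that apical uptake relies on had 9 tested genes, of which 0 were called without the block (2 had an unadjusted p under 0.05). Slc9a3 encodes NHE3, a sodium-proton exchanger of the brush border that provides protons for PepT1. It had 317, 590.2 and 447 normalized counts with LDL and 183, 362 and 219.8 with PBS. It was higher in each mouse and was called higher with the block only (log2 change 0.84, limma adjusted p = 0.177, and 0.00294 with the block). Its difference was opposite in sign to that of Slc15a1 in each mouse. Nherf1, a scaffold protein that binds NHE3, was named after its values were seen, and it had an adjusted p of 0.0478 from limma at a log2 change of 0.52, under the 1.5-fold threshold.

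Among 13 transcription factor genes of the absorptive lineage, Creb3l3 was called higher and 0 were called lower. Creb3l3 encodes a membrane-bound factor of lipid and energy metabolism. It had 1065, 1742 and 1441 normalized counts with LDL and 304, 429.9 and 310.2 with PBS, and the treatments did not overlap (log2 change 2.01, limma adjusted p = 0.00828). That call was lost when the LDL culture of mouse 3 or the PBS culture of mouse 1 was left out (limma adjusted p = 0.0740 and 0.0607). Prdm1, a repressor known from the fetal and neonatal gut, had 61.0, 15.5 and 30.1 normalized counts with LDL and 15.3, 8.70 and 8.14 with PBS, and was called higher with the block only (limma adjusted p = 0.163, and 0.0223 with the block). Hnf4a, the most abundant gene of that list, had a log2 change of -0.20 (limma adjusted p = 0.334).

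**Figure D4:**
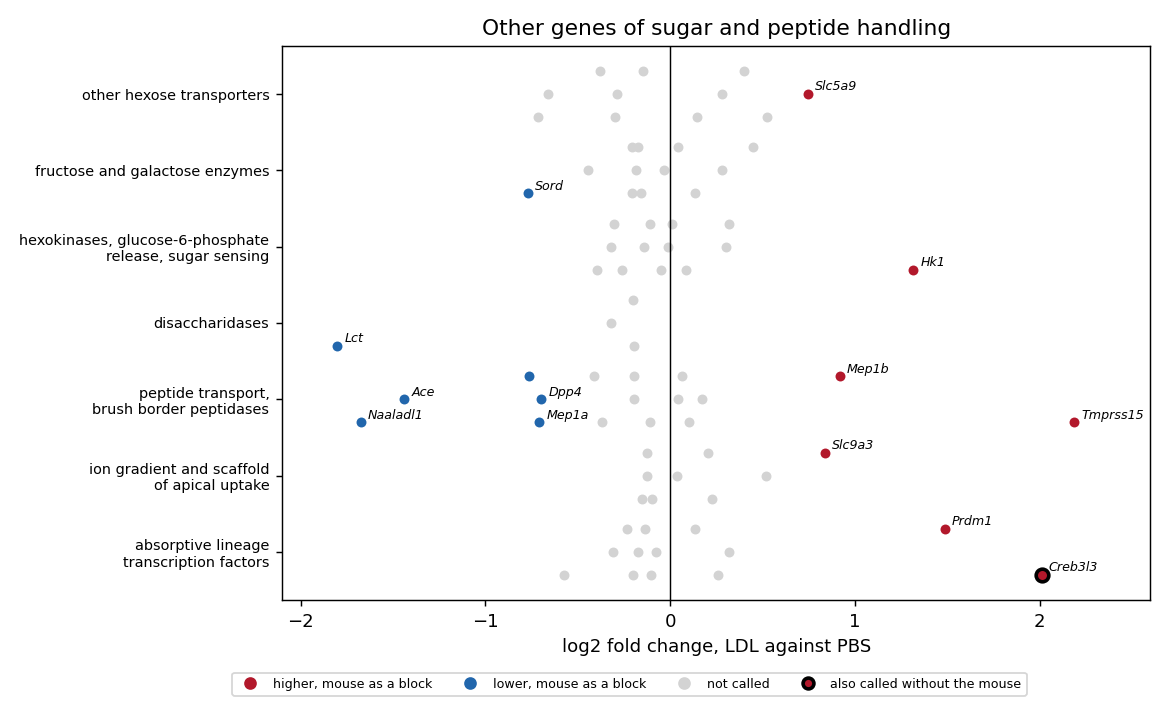
Log2 fold change, LDL against PBS, of the 78 tested genes of the 7 lists of sugar and peptide handling, 1 point per gene and 1 row per list. Coloured points were called with the mouse as a block (red higher, blue lower), and the point with a black ring was also called without it. Of the 7 lower ones, 5 are in the peptidase list, the largest list with 16 of the 78 genes.

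Markers of cell types were read beside these values. Of all genes tested, 0.878% were called higher and 0.395% lower without the block, and 5.68% and 3.46% with it. Of 12 enterocyte markers, which stand for the cells that express most of the 6 genes, Alpi was called higher and 0 lower without the block, and 8 were called higher with it. Their median log2 change was 0.76, and their summed level was 88963 to 91824 normalized counts with LDL and 55378 to 70866 with PBS. The lower values of Slc5a1, Slc15a1 and Khk stood beside a higher sum of these 12 markers in every LDL culture. Apob and Ezr were large parts of that sum, with means of 24228 and 13747 with LDL and 15477.5 and 7584 with PBS. Cdh17, another large part, had means of 15218 and 14714. Brush border genes outside the 12 markers mostly went the other way. In each mouse 3 of the 4 disaccharidase genes were lower, and in the peptidase list 10 of 16 were lower and 2 higher. Of 6 tested markers of fetal-like epithelium, 0 were called without the block (all 6 had an unadjusted p under 0.05) and 6 were called higher with it. Their sum was 20149, 4202 and 15762 with LDL in mice 1, 2 and 3 and 1460 to 2818 with PBS.

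Goblet cell markers summed to 30040 to 36488 with LDL and 52003 to 57132 with PBS. Without the block, 1 of 7 was called higher and 3 lower. Sums overlapped between treatments for 8 stem cell markers (38963 to 45893 with LDL, 41250 to 61842 with PBS), 9 enteroendocrine markers (7523 to 11970 with LDL, 9847 to 15440 with PBS) and 8 proliferation markers (63766 to 70877 with LDL, 69683 to 72353 with PBS). The sum of 6 Paneth cell markers was 10359 to 12873 with LDL and 13454 to 22006 with PBS. The 4 tuft cell markers summed to at most 213 in any library. With the block, where 5.68% of all genes were called higher and 3.46% lower, 1 goblet cell marker was called higher and 4 lower. In that fit 1 stem cell marker and 1 Paneth cell marker were called higher, and 2 of each lower. Also called lower were 2 enteroendocrine markers and 1 tuft cell marker, and 0 proliferation markers were called in either direction. The part of these shifts in the results for the 6 genes was not tested.

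Markers of other tissue were low. Sums were at most 192 normalized counts in any library for 8 stromal, 299 for 6 immune and 25.6 for 3 endothelial markers, and Dcn and Cdh5 were below 5 normalized counts in every library. Of 4 duodenum markers 2 were called higher without the block, Cybrd1 and Slc40a1, against 0.878% of all genes. The sum was 7352 to 9821 with LDL and 5758 to 6521 with PBS. Most of it was Onecut2, which was not called and had means of 7229 with LDL and 5356 with PBS. Pdx1 had a log2 change of 0.07 (limma adjusted p = 0.941). The ileum marker Fabp6 was at most 13.7 normalized counts, the sum of the 2 ileum markers was 43.7 to 179 with LDL and 37.5 to 56.1 with PBS, and the colon marker Hoxb13 had no read in any library. The sum of the 4 colon markers was 170 to 221 with LDL and 254 to 447 with PBS.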

How the data were processed

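The 6 RNA-Seq libraries were assigned to treatment (LDL or PBS, 3 each) and mouse from their labels. The authors removed ribosomal RNA, made stranded libraries, aligned single-end reads to GRCm39 with STAR and counted them per gene with featureCounts (bcl2fastq 2.20 per the labels); the annotation release and the strand setting are not given in the sources used here. The deposited signal values are normalized counts, and dividing them by the value of 1 read gave whole reads, within 0.01, for 100% of the table. Of 55416 genes, 12377 held no read. Names, positions and transcript lengths came from GENCODE M39, which lacked 667 of the identifiers. Each library held 22061545 to 31073360 reads on genes.

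The 6 genes and the lists of other genes were chosen with earlier results of these data known. Named genes were all 6 genes, every listed gene called in either fit, the most abundant gene of each list and the 2 genes most correlated with each of the 6; some of these genes are not reported here. Tests were run on all 18459 genes with a mean of at least 10 with limma 3.58.1 (eBayes with a trend, two-sided) in R 4.3.3, on log2(normalized count + 1). The mouse was not a term of that fit, since the study's text names none for its DESeq2 analysis. For its other comparisons of PBS- and LDL-treated organoids the study named a paired t-test. The numbers pair the libraries, because the labels give the 2 libraries of a number the same animal identifier, and after removal of treatment means those libraries correlated across genes with r = 0.484, 0.421 and 0.462. Alternatives were other pseudocounts, filters, scalings and thresholds, the mouse as a block, libraries left out in turn, and edgeR 4.0.16 and DESeq2 1.42.0 on the recovered reads, 22 in all. Scripts were tested on simulated data. Promoter letters were read from GRCm39, and RefSeq windows were those of GRCm38.p6. Other steps used matplotlib 3.10.9, numpy 2.4.6 and pandas 2.3.3 under Python 3.11.15.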

Additional observations from a re-analysis of the deposited data

How the results depend on the processing

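With the replicate block (the mouse paired), limma called 1048 genes higher and 639 lower in place of 162 and 73, and 2 of the 6 genes lower in place of 0. Of the 88 listed genes, 7 were called higher and 7 lower in place of 1 and 0. It changed no other call among the 6 genes. edgeR with the block called 1171 genes higher and 588 lower (2 of the 6 lower, 7 and 7 listed), DESeq2 with the block 984 and 513 (2 of the 6 lower, 6 and 7 listed), and DESeq2 without it 846 and 348 (4 and 2 listed). Without a filter on the mean the counts were 506 and 245 (2 and 1 listed), over genes whose median log2 change was 0.10. At any fold change 2 listed genes were called higher. At an adjusted p under 0.001 the counts were 6 and 0, with 0 of the 6 genes and 0 listed genes higher.

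Leaving out 1 library gave 18 to 1179 genes higher and 2 to 1133 lower, 0 to 1 of the 6 genes in each direction, and 0 to 5 listed genes higher and 0 to 10 lower. The lowest gene counts came from omitting the LDL culture of mouse 3, and the highest from omitting the LDL culture of mouse 2. Leaving 1 mouse out of the fit with the block gave 265 to 1604 genes higher and 77 to 1348 lower (758 and 327 without mouse 1), 0 to 2 of the 6 higher and 1 to 2 lower, and 1 to 8 listed genes higher and 4 to 10 lower. Over all 22 alternatives the log2 change of Slc2a1 was 0.77 to 1.07, of Slc5a1 -0.62 to -0.11, of Slc15a1 -1.04 to -0.40 and of Khk -1.36 to -0.40, with no change of sign. Slc2a2 turned to -0.27 when the LDL culture of mouse 2 was omitted and to -0.17 when the PBS culture of mouse 1 was, and otherwise reached up to 0.61. Slc2a5 turned to -0.15 when the LDL culture of mouse 2 was omitted and otherwise reached up to 0.91. None of the 18 listed genes named by the rule changed sign. The causes were not tested. The fewest reads behind a value of the 6 genes were 207, for Slc2a5 with LDL in mouse 1.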

Other observations

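Slc15a2, the second peptide carrier of the proton-coupled family, was nearly absent from mouse 3. It had 101, 74.6 and 0.836 normalized counts with LDL in mice 1, 2 and 3 and 105, 58.4 and 0.814 with PBS, which is 1 read in each library of mouse 3. The treatments did not separate (log2 change 0.10, limma adjusted p = 0.986), and Slc15a1 was present in both libraries of that mouse. Slc15a2 was named after its values had been seen.

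Slc5a3 and Slc5a11, both sodium-coupled carriers of myo-inositol, differed in opposite directions in each mouse. Slc5a3 had 1609, 1112 and 1360.2 normalized counts with LDL and 988, 927 and 889.9 with PBS, without overlap, and Slc5a11 had 41.5, 222 and 54.4 with LDL and 92.9, 239.8 and 101 with PBS. Neither was called in either fit, and the adjusted p of Slc5a11 was 0.592 without the block and 0.0640 with it, from limma. Slc5a11 was named after its values had been seen.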
